A study of Homo sapiens with 6 samples.

Results

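The zinc finger gene clusters of human chromosome 19 were examined for 2 forms of the histone variant H2A.Z in HEK293T, a human cell line established from embryonic kidney. Peaks of ubiquitylated and of total H2A.Z that overlapped or touched were merged, and a merged region was kept when its midpoint lay in 1 of 6 stretches of chromosome 19 (hg19): 11.7 to 12.7, 20.0 to 24.5, 37.0 to 38.4, 44.3 to 45.0, 52.3 to 54.0 and 56.5 to 59.13 Mb, called clusters 1 to 6 here. This gave 475 regions, 0.240% of the 198179 merged regions of the genome and 5.67% of the 8379 on chromosome 19. All cells carried the same pair of plasmids at a ratio of 3 to 1, H2A.Z-1 with Flag and the biotin ligase BirA at its C-terminus and ubiquitin with an AviTag at its N-terminus, and were harvested after 48 hours. The samples were streptavidin pull-downs of nucleosomes with biotinylated ubiquitin (ubiquitylated H2A.Z, 2 samples), Flag pull-downs of the tagged histone (total H2A.Z, 2 samples) and histone H3 immunoprecipitates (2 samples), all from chromatin cut with micrococcal nuclease. The H3 samples entered no comparison here. The tagged histone was introduced by transfection, so the regions describe this fusion protein and not the cells' own H2A.Z.

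KRAB zinc finger proteins form the largest family of DNA-binding transcriptional repressors in mammals, and many of them silence transposable elements by recruiting the co-repressor TRIM28 (KAP1). Their genes arose by repeated tandem duplication, lie in clusters, and are known for heterochromatin marks over the zinc finger exons beside active promoters. H2A.Z is typically found in the nucleosomes beside promoters and enhancers, and its monoubiquitylated form has been linked to silent chromatin. In the RefSeq annotation of GRCh38.p14, 250 of 517 protein-coding genes named ZNF with a number (48.4%) lie on chromosome 19. There 183 of them stand in 16 uninterrupted runs of at least 5 neighbouring ZNF genes, the longest with 27. Positions in that annotation belong to another build than the hg19 regions, so no gene was assigned to a region, the label of the clusters could not be checked against gene positions, and no region sequence is shown.

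Values per sample were not among the data used, so each value below belongs to a region and not to a library. The spread between the 2 replicates of a group enters through the authors' own measures, the irreproducible discovery rate (IDR, lower for peaks that repeat better) and the false discovery rate (FDR) of the difference between pull-downs. Nothing in the labels says that replicates came from separate cultures, so these measures may cover technical spread alone. Read depth is unknown. Wilson 95% intervals on shares cover counting error only, and treat neighbouring regions as independent, which they are not.

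The clusters held peaks of both forms, and the lists coincided less often than elsewhere. Ubiquitylated peaks numbered 281 over 136 kb, against 333 total H2A.Z peaks over 138 kb. Of the 475 regions, 148 (31.2%) held ubiquitylated peaks alone, 198 (41.7%) total H2A.Z peaks alone, and 129 (27.2%, interval 23.4 to 31.3%) peaks of both. The share with both was 39.7% on the rest of chromosome 19 and 41.9% over all merged regions. Within 500 kb of the cluster bounds it was 35.5% of 860 regions. The difference in these shares was not tested, since no value per sample was at hand. With both peaks required to overlap by 50%, 21.7% of the cluster regions counted as shared.

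The cluster regions were spaced unevenly and were slightly wide. Their density was 39.8 per Mb, or 56.7 per Mb without cluster 2, which had 12.0 per Mb. The distance from a region to its nearest neighbour had a median of 1304 bp, against 615 bp on the rest of chromosome 19 and 783 bp over all regions. By cluster this median ran from 292 bp in cluster 3 and 751 bp in cluster 1 to 18946 bp in cluster 2. Of the 475, 139 (29.3%) had no neighbour within 10 kb, against 2.95% on the rest of the chromosome and 12.6% over all regions. Median width was 375 bp (quartiles 255 and 557) against 337 bp on the rest of chromosome 19 and 313 bp over all regions. Peaks of the clusters repeated less well in the streptavidin list, with a median IDR of 0.00216 against 0.00137 over all ubiquitylated peaks. For total H2A.Z peaks the median IDR was 0.00393 in the clusters and 0.00335 over the whole list.

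**Figure D1:**
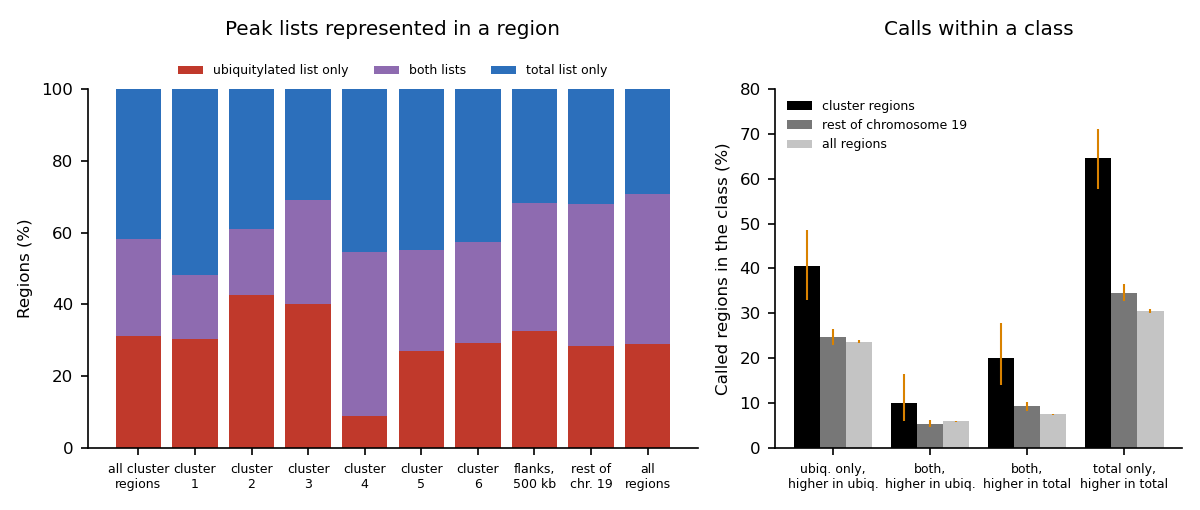
Left, share of regions (%) with peaks of the ubiquitylated list alone, both lists or the total list alone, for all 475 cluster regions, clusters 1 to 6, the flanks, the rest of chromosome 19 and all merged regions. Right, share of regions (%) in a class that the authors called in the direction named, with Wilson 95% intervals. Cluster regions with total H2A.Z peaks alone were called higher in total H2A.Z in 64.6% of cases, against 30.5% over all regions of that class. In that class 0 of 198 cluster regions were called the other way, so its shares tell how often regions were called and not in which direction.

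The next comparison asked where the streptavidin pull-down differed from the Flag pull-down. A region is called here when the authors' deposited table lists it with an FDR of at most 0.05. Cluster regions were called often, and calls towards total H2A.Z outnumbered those towards ubiquitylated H2A.Z. In all, 229 of 475 regions (48.2%) were called, where the share over all merged regions was 21.5%. Regions higher in ubiquitylated H2A.Z numbered 73 (15.4%, interval 12.4 to 18.9%; 9.39% over all regions). Regions higher in total H2A.Z numbered 156 (32.8%, interval 28.8 to 37.2%; 12.1% over all regions). The same shares were 9.22% and 14.8% on the rest of chromosome 19, and 13.0% and 17.8% within 500 kb of the clusters. Of the called cluster regions 31.9% were higher in ubiquitylated H2A.Z, against 43.7% of called regions over the genome. The directions are relative to a normalization that the sources used here do not state. Total H2A.Z means all tagged H2A.Z, with or without ubiquitin. A region higher in total H2A.Z thus had a lower streptavidin signal relative to the Flag signal. Streptavidin was used only for ubiquitylated and Flag antibody only for total H2A.Z. An effect of the capture reagent and one of ubiquitylation therefore cannot be told apart.

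The excess of calls towards total H2A.Z held under stricter limits, whereas calls towards ubiquitylated H2A.Z of at least 2-fold were few. With an FDR under 0.01 in the authors' deposited table, 47 cluster regions (9.89%; 5.16% over all regions) were higher in ubiquitylated and 127 (26.7%; 7.09% over all regions) were higher in total H2A.Z. With a change of at least 2-fold these numbers were 3 (0.632%; 1.47% over all regions) and 59 (12.4%; 2.39% over all regions). The clusters, with 0.240% of the regions, supplied 0.392% of all regions higher in ubiquitylated and 0.651% of all regions higher in total H2A.Z. Among the 1011 genome-wide regions of lowest FDR on the ubiquitylated side, 7 lay in the clusters, and among the 1008 on the total side, 26 did (the deposited FDR is rounded, so ties go past 1000).

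**Figure D2:**
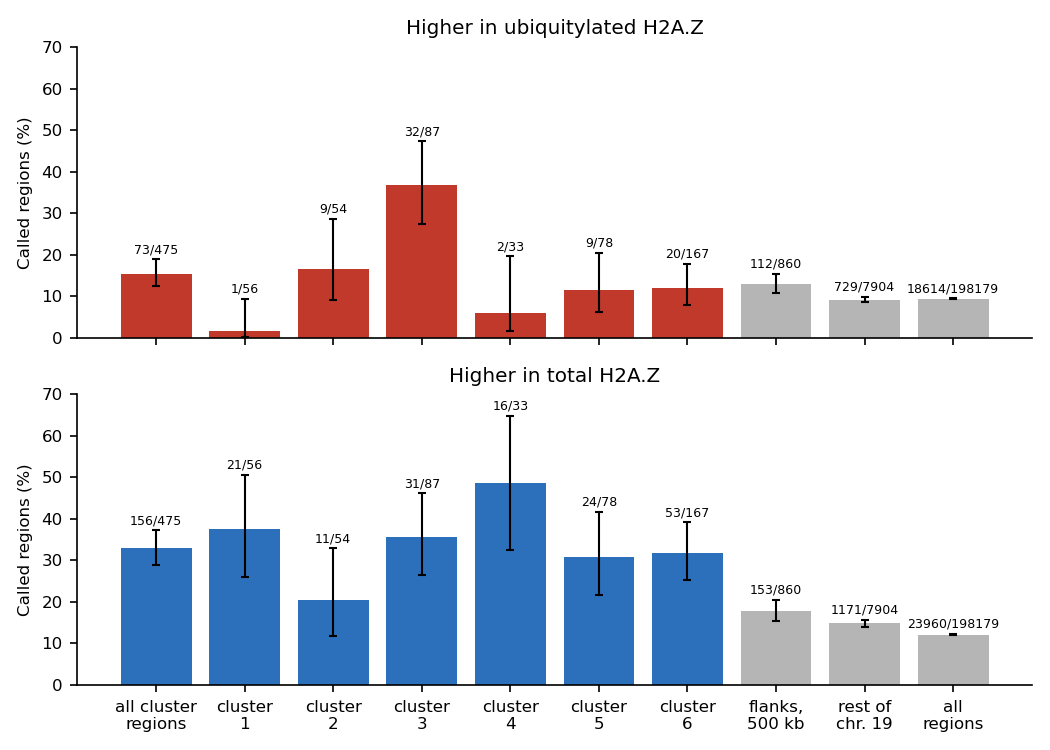
Share of regions (%) called higher in ubiquitylated H2A.Z (upper panel) and higher in total H2A.Z (lower panel) at an FDR of at most 0.05 in the authors' deposited table, with counts above the bars and Wilson 95% intervals. The share higher in total H2A.Z lay between 20.4% (cluster 2) and 48.5% (cluster 4), above the 12.1% of all regions in all 6 clusters. For cluster 2 the interval, 11.8 to 32.9%, included 12.1%. The share higher in ubiquitylated H2A.Z ranged from 1.79% (cluster 1) to 36.8% (cluster 3).

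The share called higher in total H2A.Z exceeded that of the genome among regions with peaks of both lists and at each width examined. Within the clusters, however, calls towards ubiquitylated H2A.Z were the more numerous at 800 bp and more. Regions with peaks of 1 list alone were called almost only towards that list. Of regions with total H2A.Z peaks alone, 0 of 198 in the clusters and 48 of 57791 over the genome were higher in ubiquitylated H2A.Z. Their shares below therefore tell how often they were called, and not in which direction. Cluster regions with ubiquitylated peaks alone were higher in ubiquitylated H2A.Z in 60 of 148 cases (40.5%), against 23.8% over all such regions. Cluster regions with total H2A.Z peaks alone were higher in total H2A.Z in 128 of 198 cases (64.6%, interval 57.8 to 71.0%), against 30.5%. Among regions with peaks of both lists, 13 of 129 (10.1%) were higher in ubiquitylated and 26 (20.2%) were higher in total H2A.Z, against 5.97% and 7.52% over all such regions. Of cluster regions 200 to 400 bp wide, the ubiquitylated side had 7.81% and the total side 32.8%, against 6.23% and 11.1% at that width over the genome. At 800 bp and more, the ubiquitylated side had 46.0% and the total side 24.0% of 50 cluster regions, against 25.3% and 14.2%. Calls that went against the list a region came from were few. Their share was above that of the genome, but it rests on 2 regions picked out after their values were seen. Of the 148 cluster regions with ubiquitylated peaks alone, 2 (1.35%, interval 0.371 to 4.79%) were higher in total H2A.Z, against 0.178% of such regions on the rest of chromosome 19 and 0.128% over all of them. They were chr19:38145749-38146291 (log2 fold change -0.51, FDR 0.008) and chr19:56631166-56631492 (-0.58, FDR 0.049), which held ubiquitylated peaks alone but were higher in total H2A.Z by the authors' deposited table.

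Among called regions, changes towards total H2A.Z had a larger median size in the clusters than over the genome. The authors' deposited table gave cluster regions higher in total H2A.Z a median log2 fold change (ubiquitylated over total) of -0.91 (quartiles -1.11 and -0.75), where all regions of that direction had -0.76. For cluster regions with total H2A.Z peaks alone, the authors' deposited table gave -0.95 against -0.84 over all such called regions. Regions higher in ubiquitylated H2A.Z had a median of 0.66 (quartiles 0.56 and 0.75) in the clusters and 0.68 over the genome in the authors' deposited table. Fold changes exist for called regions alone, so these medians do not describe the uncalled regions and depend on the FDR limit. With an FDR under 0.01 the median of the cluster regions higher in total H2A.Z was -0.97. The fold changes were read as log2 values, although their base is not stated.

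**Figure D3:**
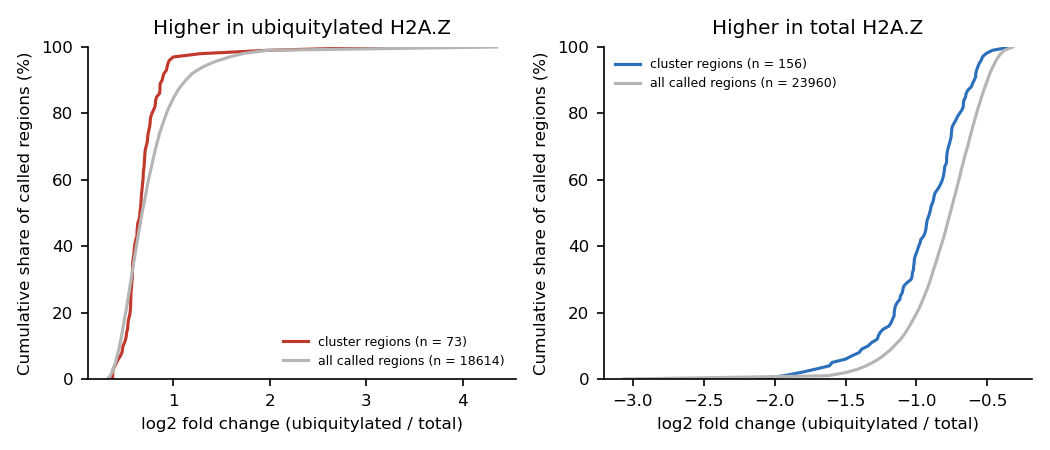
Cumulative share (%) of called regions against their log2 fold change (ubiquitylated over total H2A.Z, from the authors' deposited table), for the cluster regions and all called regions, higher in ubiquitylated H2A.Z (left) and higher in total H2A.Z (right). On the right the curve of the cluster regions lies towards more negative values, with medians of -0.91 and -0.76.

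All 6 clusters had a larger share of regions higher in total H2A.Z than the 12.1% of all regions, and they differed on the ubiquitylated side. For cluster 2 the interval of that share, 11.8 to 32.9%, included 12.1%. In cluster 3 the calls were balanced, with 32 of 87 regions (36.8%) higher in ubiquitylated and 31 (35.6%) higher in total H2A.Z, while in the other 5 clusters calls towards total H2A.Z were the more numerous. Cluster 1 was the most one-sided: 1 of its 56 regions was higher in ubiquitylated and 21 (37.5%) were higher in total H2A.Z. Its single region on the ubiquitylated side was chr19:12472552-12472981 (log2 fold change 0.68, FDR 0.012 in the authors' deposited table). Cluster 1 also had the lowest ratio of bases under ubiquitylated to bases under total H2A.Z peaks, 0.525 (10.3 kb and 19.6 kb), where the genome had 1.04. Cluster 4, the shortest with 33 regions, followed with 2 regions higher in ubiquitylated and 16 (48.5%, interval 32.5 to 64.8%) higher in total H2A.Z. Cluster 4 had few regions with ubiquitylated peaks alone, 3, and 15 each with both and with total H2A.Z peaks alone.

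Cluster 2, the longest at 4.5 Mb, had 54 regions, or 12.0 per Mb. In it 35 regions (64.8%) had no neighbour within 10 kb. Cluster 2 held 9 regions (16.7%) higher in ubiquitylated and 11 (20.4%, interval 11.8 to 32.9%) higher in total H2A.Z. Its 11 total-side regions all had total H2A.Z peaks alone and all had an FDR under 0.01, and 10 of them differed at least 2-fold. The authors' deposited table gave them a median log2 fold change of -1.25, the most negative of the 6 clusters. Those 11 measured 244 to 741 bp, and 5 of them followed each other over chr19:21511671-21950326 with no opposite call between.

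Clusters 5 and 6 lay between these. In cluster 5, 9 of 78 regions (11.5%) were higher in ubiquitylated and 24 (30.8%) were higher in total H2A.Z. In cluster 6, 20 of 167 (12.0%) were higher in ubiquitylated and 53 (31.7%) were higher in total H2A.Z. Calls were not spread evenly along cluster 6. At its centromere-side end, a stretch of 20 regions over chr19:56520910-56593175 and one of 14 over chr19:56636896-56720683 held no call. Of these regions 12 and 8 had peaks of both lists. In that class 90 of 129 cluster regions were uncalled, against 246 of all 475. Of the 93 regions above the midpoint of cluster 6, 11 were higher in ubiquitylated and 41 were higher in total H2A.Z, against 9 and 12 of the 74 below it. In cluster 5 the order was the other way, with 7 regions higher in ubiquitylated and 11 higher in total H2A.Z among 50 regions above the midpoint, against 2 and 13 among 28 below it.

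**Figure D4:**
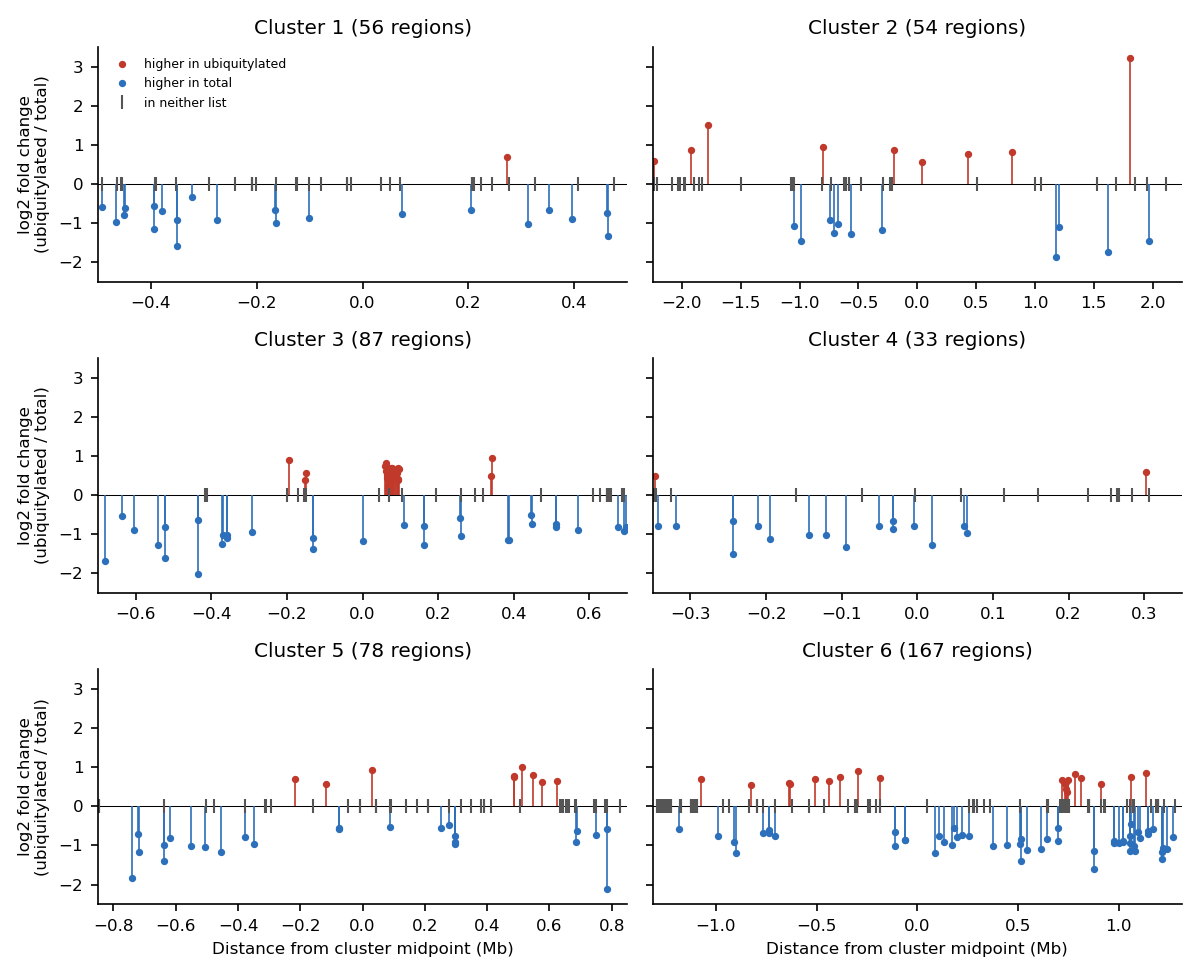
Log2 fold change (ubiquitylated over total H2A.Z) of each called region in the authors' deposited table, against its distance (Mb) from the midpoint of its cluster, with uncalled regions as grey ticks at 0. Regions higher in total H2A.Z (blue) occur along all 6 clusters, and most of those higher in ubiquitylated H2A.Z (red) in cluster 3 lie in 1 dense block.

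The 6 regions of lowest FDR on the total side all held total H2A.Z peaks alone. The first were chr19:58694822-58695423 (602 bp, cluster 6) and chr19:24216265-24217005 (741 bp, cluster 2). With log2 fold changes of -1.61 and -1.45 and an FDR of 4.6e-12 each in the authors' deposited table, they tied at rank 6 of the 23960 regions higher in total H2A.Z. The region in cluster 2 stood alone, with 14070 bp to the region before it and 143561 bp to the region after it. Next came chr19:12511022-12512146 in cluster 1, which was wider at 1125 bp and changed less (-1.03, FDR 5.2e-11 in the authors' deposited table). Its peak had an IDR of 2.48e-05, the best repeated of these 6. The remaining 3 were chr19:37019696-37020207 in cluster 3 (-1.70, FDR 8.5e-10), chr19:23432742-23433139 in cluster 2 (-1.86, FDR 2.4e-09) and chr19:11848692-11849775 in cluster 1 (-0.93, FDR 1.2e-08), as the authors' deposited table gives them. In the other clusters the lowest FDR on this side belonged to chr19:44529528-44530241 in cluster 4 (-1.03, FDR 4.2e-07) and chr19:52407922-52408176 in cluster 5 (-1.82, FDR 1.9e-07) in the authors' deposited table. Unlike the others, the region in cluster 4 held peaks of both lists.

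The 3 largest changes towards total H2A.Z were at chr19:53935254-53935439 (186 bp, log2 fold change -2.12, FDR 5.1e-06), chr19:37263813-37263962 (150 bp, -2.03, FDR 3.3e-08) and chr19:23432742-23433139 (398 bp, -1.86) in the authors' deposited table. The first of these ranked 19th by size of change among all regions higher in total H2A.Z.

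Many regions higher in total H2A.Z stood in pairs across a short gap. Of neighbouring cluster regions less than 300 bp apart, 24 pairs, made of 46 regions, were both higher in total H2A.Z, and no such pair held opposite calls. Their gaps ran from 93 to 292 bp with a median of 179 bp. The members of a pair could differ in size of change. In cluster 3 the 150 bp region named above (-2.03) lay 135 bp from chr19:37263280-37263677 (-0.65, FDR 0.0021) in the authors' deposited table. In cluster 1, chr19:11848692-11849775 (-0.93) lay 164 bp from chr19:11849940-11850254, where the authors' deposited table gave -1.59 with an FDR of 7.6e-08. The top region of cluster 6 lay 178 bp from chr19:58694448-58694643 (-1.15, FDR 0.00012 in the authors' deposited table). One block of 4 regions each less than 300 bp from the next, chr19:58872741-58875033, was higher in total H2A.Z throughout. Such closeness was not particular to the clusters, since 54 of the 156 (34.6%) had a neighbour within 300 bp against 35.7% of all regions higher in total H2A.Z.

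Regions higher in total H2A.Z followed each other over long distances. Counted without regard to uncalled regions between them, the 156 regions fell into 23 series uninterrupted by an opposite call, 13 of which held at least 5 regions and 131 regions in all. The longest held 22 over chr19:57702228-58515108 (813 kb, cluster 6), with changes from -1.39 to -0.54 (log2) by the authors' deposited table. It covered 33 regions, 11 of them uncalled, and these took up 1.90% of its bases. Series of 16 ran over chr19:11708311-12405623 in cluster 1 and over chr19:44307478-44716345 in cluster 4. The series in cluster 4 held all 16 of its regions on the total side. In cluster 3 a series of 13 ran over chr19:37019696-37407163 with 2 uncalled regions among them. Of 223 pairs of successive called regions in the clusters, 53 were both higher in ubiquitylated, 133 both higher in total H2A.Z and 37 mixed. Thus 83.4% shared a direction, against 69.0% on the rest of chromosome 19 and 72.5% over the genome. A more one-sided mix of calls raises this share by itself. Of called regions, 31.9% in the clusters and 43.7% over the genome were higher in ubiquitylated H2A.Z. Many of the 53 pairs lay in the block of 27 called regions described next, which was picked after its values were seen.

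On the ubiquitylated side 1 block in cluster 3 stood out, and it was singled out after its values were seen. Whether it holds repeats, or sequence to which reads do not map uniquely, was not examined. No region was left out here on such grounds. Between chr19:37760214 and chr19:37797915, a span of 37.7 kb, lay 28 regions, of which 27 were called higher in ubiquitylated H2A.Z. They covered 77.5% of the span. The gaps between them had a median of 153 bp, and 21 of the 27 gaps were under 300 bp. Ubiquitylated peaks, 28 in number, covered 29.2 kb of the block, against 9 total H2A.Z peaks over 4.30 kb. Of its regions 22 had ubiquitylated peaks alone, 6 had peaks of both lists, and 0 had total H2A.Z peaks alone. The block was broad and its changes were moderate and even. By the authors' deposited table their log2 fold changes lay between 0.38 and 0.82 with a median of 0.60, so 0 of the 27 reached a 2-fold change.

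The block supplied the widest regions of the clusters and most of the low FDR values on this side. The widest was chr19:37782855-37787794 at 4940 bp (log2 fold change 0.58, FDR 2.1e-07 in the authors' deposited table), where 1 ubiquitylated peak overlay 2 total H2A.Z peaks. It was followed by chr19:37787914-37790247 (2334 bp, 0.61, FDR 3.3e-07) and chr19:37790362-37792584 (2223 bp, 0.57, FDR 1.9e-06) in the authors' deposited table. Further regions of low FDR in the block were chr19:37760709-37762424 (0.63, FDR 4.2e-07), chr19:37779370-37780225 (0.67, FDR 1.6e-06) and chr19:37765286-37767317 (0.56, FDR 1.7e-06), as listed in the authors' deposited table. Of the 10 cluster regions of at least 1500 bp, 6 lay in the block. The nearest region on its centromere side was 17198 bp away, and on the other side 5513 bp. Without the block, 46 of 447 cluster regions (10.3%) were higher in ubiquitylated H2A.Z, near the 9.39% of all regions, and 34.9% were higher in total H2A.Z. The share higher in ubiquitylated H2A.Z was then 7 of 123 (5.69%) among regions with peaks of both lists, against 5.97% over all such regions, and 9 of 36 at 800 bp and more, where the share over all such regions was 25.3%. Among regions with ubiquitylated peaks alone it was 39 of 126 (31.0%), against 23.8%. The block held 27 of the 73 cluster regions higher in ubiquitylated H2A.Z. It was picked as the longest series of such calls, so it could hold no call towards total H2A.Z. Leaving it out therefore lowers the share on the ubiquitylated side and raises that on the total side by construction.

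**Figure D5:**
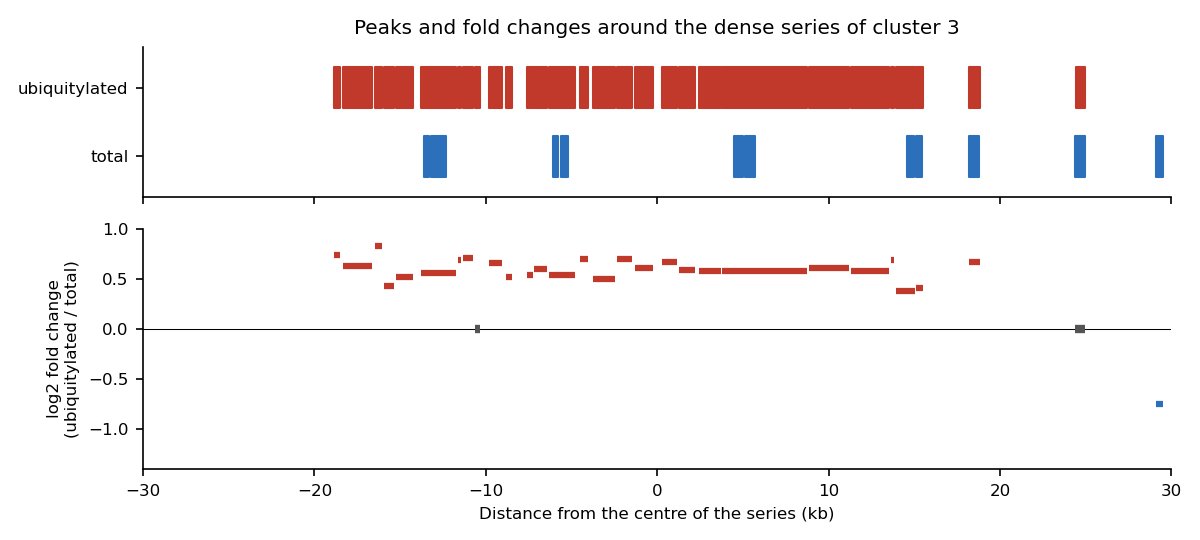
Peaks of ubiquitylated (red) and total H2A.Z (blue) around the dense series of cluster 3 (upper panel), and log2 fold change (ubiquitylated over total H2A.Z) of the merged regions in the authors' deposited table (lower panel, bars to scale in width, uncalled regions in grey at 0), against the distance (kb) from the centre of the series. The 27 called regions lie between 0.38 and 0.82.

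Elsewhere, calls towards ubiquitylated H2A.Z stood singly or in shorter series. The strongest change of all was at chr19:24061360-24061817 in cluster 2, a 458 bp region with ubiquitylated peaks alone and a log2 fold change of 3.21 (FDR 2.8e-12) in the authors' deposited table. That region ranked 7th by size of change among the 18614 regions higher in ubiquitylated H2A.Z, although the IDR of its peak, 0.039, was near the limit of 0.05. It lay 119628 bp from the region before it and 35803 bp from the region after it. A 2-fold change was also reached by chr19:20471970-20472145 in cluster 2 (1.50, FDR 0.00039) and chr19:53661380-53662012 in cluster 5 (1.01, FDR 2.4e-05) in the authors' deposited table. Within cluster 6 the region of lowest FDR on this side was chr19:58951061-58951946 (0.86, FDR 2.3e-05), and within cluster 4 it was chr19:44952352-44952845 (0.58, FDR 0.0045), in the authors' deposited table. Beyond the block, the longest series on this side held 8 regions over chr19:58531413-58630211 and 7 over chr19:57174967-57630702, both in cluster 6, and 6 over chr19:53635496-53773974 in cluster 5. Of the 20 series on this side, the block included, 4 held at least 5 regions and together 48 of the 73 regions. A further 11 series consisted of a single region.

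The peaks that repeated best between replicates were not those with the largest differences. Among cluster regions, the ubiquitylated peaks of lowest IDR lay at chr19:44905175-44905925 (IDR 4.29e-07) and chr19:58536538-58536719 (IDR 1.1e-06), and both regions had peaks of both lists and no call. For total H2A.Z they lay at chr19:57078289-57078768 (IDR 7.04e-06) and chr19:57106682-57107093 (IDR 1.05e-05). Both were higher in total H2A.Z by a moderate amount, with log2 fold changes of -0.61 (FDR 0.0044) and -0.76 (FDR 0.0019) in the authors' deposited table. Of the 246 uncalled cluster regions, 90 had peaks of both lists, 86 ubiquitylated peaks alone and 70 total H2A.Z peaks alone.

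The bounds of the clusters were set by position and not by H2A.Z. Of the 12 regions just inside a bound, 1 was higher in ubiquitylated and 2 were higher in total H2A.Z, and of the 11 just outside, 0 and 2 were. Over all merged regions the shares were 9.39% and 12.1%, and counts this small cannot be told apart from them. The region past the end of cluster 2, chr19:28284240-28284814, lay 3785 kb beyond it and so was no near neighbour. That region was higher in total H2A.Z (log2 fold change -1.58, FDR 2.5e-10 in the authors' deposited table). Whether reads could be placed in the stretch between was not examined.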

How the data were processed

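Bowtie, SAMtools, MACS2 and edgeR with build hg19 are named in the submitters' processing notes; the sources used here give no versions or settings. For each H2A.Z form the authors deposited 1 list of peaks, whose IDR per peak (a q-value-like measure, at most 0.05, local or global not stated) was read from the values and the file names. The authors also deposited lists of regions higher in either form, with an FDR and a fold change, read as log2 of ubiquitylated over total H2A.Z from its signs and from edgeR's use.

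Starts were raised by 1 to give 1-based positions, and 1 start written in scientific notation was read as a whole number. Peaks that overlapped by at least 1 bp or touched were merged, and all 42574 deposited differential regions matched a merged region exactly. No count model was fitted, because the lists hold no counts, so depth is unknown. Comparisons are counts, shares with Wilson 95% intervals, and medians beside all 198179 regions; calls are the authors'. Merging, matching and intervals were tested on simulated data. The named regions are the 6 of lowest FDR and 3 of largest change in each direction, that of lowest FDR per cluster and direction, the 3 widest, the 2 peaks of lowest IDR per list, and the longest series; pairs, further series, calls against a region's list, uncalled stretches and regions at the bounds were added after their values were seen. The members, lists and rules were chosen with earlier results of these data known. Values were computed in Python 3.11.15 with pandas 2.3.3, numpy 2.4.6 and scipy 1.17.1 and drawn with matplotlib 3.10.9.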

Additional observations from a re-analysis of the deposited data

How the results depend on the processing

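No paired analysis was possible because the lists hold no value per library, which also kept single replicates from being left out. Of 84 recomputed values, 66 stayed within the interval of the reported value (a density within 1.5 times), 18 moved and 0 changed sign. A change of sign was not possible, since the values were shares, widths, densities and medians within 1 direction of change. At an IDR under 0.01 in both lists, 22.3% of 359 regions had peaks of both. With 50% of both peaks overlapping it was 21.7%. At an FDR under 0.01, 9.89% were higher in ubiquitylated and 26.7% were higher in total H2A.Z, and the authors' deposited table gave the total side a median log2 fold change of -0.97. At 2-fold or more, 0.632% were higher in ubiquitylated and 12.4% were higher in total H2A.Z, which left 4.84% of called regions higher in ubiquitylated H2A.Z. Fewer calls follow from the stricter limits by construction, and a stricter FDR limit favours larger changes. The cause of the lower share of called regions on the ubiquitylated side was not tested. Among regions with peaks of both lists, 10.1% and 20.2% were called in the same order, with medians of 0.56 and -0.67 in the authors' deposited table. Without cluster 3, 10.6% of regions and 24.7% of called regions were higher in ubiquitylated H2A.Z (median 0.71). Without its dense series, a setting added after seeing the data, these were 10.3% and 22.8% (median 0.70). Since that series was picked for its calls, lower shares without it follow by construction. The share higher in total H2A.Z stayed between 31.7% and 34.4% when any 1 cluster was left out. Narrowing the clusters by 100 kb at both ends left every value within its interval.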
